A study of Homo sapiens with 12 samples.

Results

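Antisense noncoding RNAs are transcribed from the strand opposite to a protein-coding gene and carry that gene's symbol followed by AS and a digit. Of the 25268 gene symbols measured in HEK293 cells, 719 ended in -AS and a digit, and the 288 with a mean level of at least 0.5 FPKM (fragments mapped to a gene, scaled for transcript length and library size) over the 12 libraries were taken as the expressed antisense genes. The other 431 lay under this minimum, and 72 of them were listed at 0 in every library. The members were selected on their level, so the levels are a description. Antisense genes often start beside the promoter of their sense gene and run away from it, or overlap it tail first or from inside. Most are not known to make a protein. Some are processed into small nucleolar RNAs (snoRNAs), which guide the modification of ribosomal RNA, and some regulate the neighbouring gene or titrate microRNAs and RNA-binding proteins in the cytoplasm. RNA that sediments with polysomes is mostly messenger RNA under translation, so the share of an antisense RNA found there is used as a sign of ribosome contact.

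The cells are HEK293, an established line from human embryonic kidney that carries adenovirus sequence. They were transiently transfected with 2 µg of a pCMV6 plasmid. It expressed HIS- and HA-tagged RBMX from a viral promoter or was the empty vector (control). RBMX is an RNA-binding protein of the hnRNP family that the study places in both nucleus and cytoplasm. There were 3 cultures per vector, and each gave a polysomal library and a total library, the latter pooled from all fractions of the sucrose gradient. All groups share the cycloheximide added before lysis and the removal of nuclei by centrifugation, so total RNA here is RNA of the cleared lysate and RNA kept in the nucleus was not measured. RBMX itself lay between 108 and 147 FPKM in the control total libraries and between 1460 and 2073 in the RBMX ones (polysomal 87.4 to 148 and 1072 to 1328). The 7 markers of HEK293 were all listed above 0.6 FPKM in every library, with NEFL between 33.0 and 52.6, while 8 of 9 markers of blood, liver, endothelium and fibroblasts stayed under 0.6, and the fibroblast collagen COL1A1 lay between 3.14 and 8.61. The libraries of control culture 3 stood apart in VIM, which was 248 and 217 FPKM there and at least 486 in the RBMX libraries, so results are also given without this culture where they move. How many fragments each library held cannot be read from the values.

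The library kit does not mark the strand. Reads from an antisense gene and from the sense exons it overlaps can therefore not be told apart, and overlap is given beside the results. In the GENCODE annotation (release 29, GRCh38) 280 of the 288 could be placed by name or synonym. Of these, the exons of 71 shared no base with exons of the opposite strand, those of 134 shared up to 25% of their bases, and those of 75 shared more. The median exonic length was 2471 bases, of which a median of 8.46% lay opposite other exons. By position against the named sense gene, 129 antisense genes were head to head with it (starts within 1000 bases on opposite strands), 40 lay inside it, 100 overlapped it in another way, 2 did not overlap it and 17 were not placed against one. RefSeq (GRCh38.p14) held 287 of the 288 by symbol or synonym, 272 as long noncoding RNAs and 6 as protein-coding genes. Its current name differed for 71, and 46 of those now end in -DT, for divergent transcript.

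GC boxes and ETS sites are common in promoters that lack a TATA box, many of which fire in both directions. Among 275 RefSeq start windows of the antisense genes (250 bases before to 50 after the start, 220 genes), 57.5% held the GC box GGGCGG on either strand, against 45.0% of all 35116 windows. The ETS site CCGGAAG, read on either strand, was in 14.9% of their windows, in 17.7% of the 124 head-to-head windows and in 10.3% of all windows, and the TATA box TATAAA in 7.64%, against 11.5%. These shares are descriptions, and the windows of all genes were not limited to genes expressed in these cells. The windows of 93 antisense genes overlapped the window of their sense gene. Printed here are 3 such windows, as examples of a start shared with the sense gene, from the head-to-head genes with the largest fall in polysomal RNA among 11 that fell and held an ETS site, each 300 bases, 5′ to 3′ on the strand of the antisense gene, with ETS sites in capitals. They lie at chr15:40039061-40039360 on the plus strand (SRP14-AS1, opposite the gene of a signal recognition particle subunit), chr2:240586267-240586566 on the minus strand (CAPN10-AS1, beside a calpain protease gene) and chr5:88268766-88269065 on the plus strand (TMEM161B-AS1), in GRCh38.p14 coordinates of RefSeq.
SRP14-AS1: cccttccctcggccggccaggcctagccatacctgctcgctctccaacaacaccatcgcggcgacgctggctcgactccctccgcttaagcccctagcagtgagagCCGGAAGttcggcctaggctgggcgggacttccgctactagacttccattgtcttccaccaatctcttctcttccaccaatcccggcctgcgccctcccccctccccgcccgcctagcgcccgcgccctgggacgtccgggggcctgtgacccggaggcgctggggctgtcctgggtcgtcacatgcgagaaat
CAPN10-AS1: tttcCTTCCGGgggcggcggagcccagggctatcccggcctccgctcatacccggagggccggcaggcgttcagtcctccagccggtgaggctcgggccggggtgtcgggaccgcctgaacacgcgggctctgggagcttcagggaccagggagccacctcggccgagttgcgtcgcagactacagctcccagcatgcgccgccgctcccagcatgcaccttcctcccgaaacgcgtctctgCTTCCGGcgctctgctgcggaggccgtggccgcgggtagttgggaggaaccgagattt
TMEM161B-AS1: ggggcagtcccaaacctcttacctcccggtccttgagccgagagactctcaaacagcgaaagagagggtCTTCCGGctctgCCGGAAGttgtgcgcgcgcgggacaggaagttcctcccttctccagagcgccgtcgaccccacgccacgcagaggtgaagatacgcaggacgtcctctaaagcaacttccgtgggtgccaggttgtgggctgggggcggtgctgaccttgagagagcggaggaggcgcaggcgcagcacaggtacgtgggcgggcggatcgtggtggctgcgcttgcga
SRP14-AS1 holds 1 ETS site and 2 GC boxes, CAPN10-AS1 2 and 1, and TMEM161B-AS1 2 and 3.

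The levels of the 288 antisense genes were low, with a median of 2.15 FPKM. Of them, 69 lay under 1 FPKM, 149 between 1 and 5, 56 between 5 and 20, and 14 at 20 or above. Together they made up 0.103% to 0.206% of all FPKM of a library. The most abundant was LRRC75A-AS1 at 550.0 FPKM, which RefSeq now calls SNHG29 and which holds the snoRNAs SNORD49A, SNORD49B and SNORD65. It alone made up 14.5% to 35.4% of the summed level. PCNA-AS1 (86.6), FGD5-AS1 (78.1), PITPNA-AS1 (56.9), RAB30-AS1 (39.7), RPARP-AS1 (36.4), FBXO22-AS1 (32.8) and MMP24-AS1 (30.7) followed, and TRIM52-AS1 stood at 25.9. At the other end, FAS-AS1 (0.502), ITPR1-AS1 (0.507) and MTUS2-AS1 (0.510) lay just inside the minimum, and SEMA3B-AS1 (0.482), PSMD6-AS2 (0.481) and MATN1-AS1 (0.480) just outside.

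Antisense genes were lower in polysomal than in total RNA. Over both vectors, 88 of the 288 fell and 0 rose past an adjusted p of 0.05 (limma on log2(FPKM + 1), adjusted over 14676 genes), while 5.12% of all genes tested fell and 1.49% rose. The median difference, polysomal minus total, was -0.20 on the log2 scale for the antisense genes and 0.00 (-0.00251) for all genes. The 88 that fell did so by 0.21 to 1.46, with a median of -0.46, and 86 of them were lower in all 6 cultures. Counted without a test, 146 of the 288 were lower in polysomal RNA in all 6 cultures (16.5% of all genes) and 7 were higher in all 6 (16% of all genes). The median over the antisense genes was -0.22, -0.20 and -0.11 in control cultures 1 to 3 and -0.22, -0.26 and -0.21 in RBMX cultures 1 to 3. It was below 0 in each. The values are relative to the other RNA of the same fraction.

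The number past the threshold depended on the libraries in the fit. With the culture as a block 138 passed, 136 lower (10.9% of all genes) and 2 higher, EMC3-AS1 and ZSWIM8-AS1, and 88 of the 88 were among them. Without control culture 3, 135 passed, 1 of them higher (16.4% of all genes, 962 of 2405 higher). Without any other culture and with no block, 2 to 6 passed (0.273% to 0.491% of all genes). The median over the antisense genes still stayed between -0.19 and -0.22, and CEP83-AS1 was called each time. Quantile normalization called 74, all lower, but moved the calls among all genes from 219 higher of 970 to 586 higher of 1103. The minimum that chose the members is also the filter of the test, so a gene held up by total RNA alone can be among them. With a minimum of 1 FPKM, 74 of 219 fell and the median was -0.25.

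**Figure D1:**
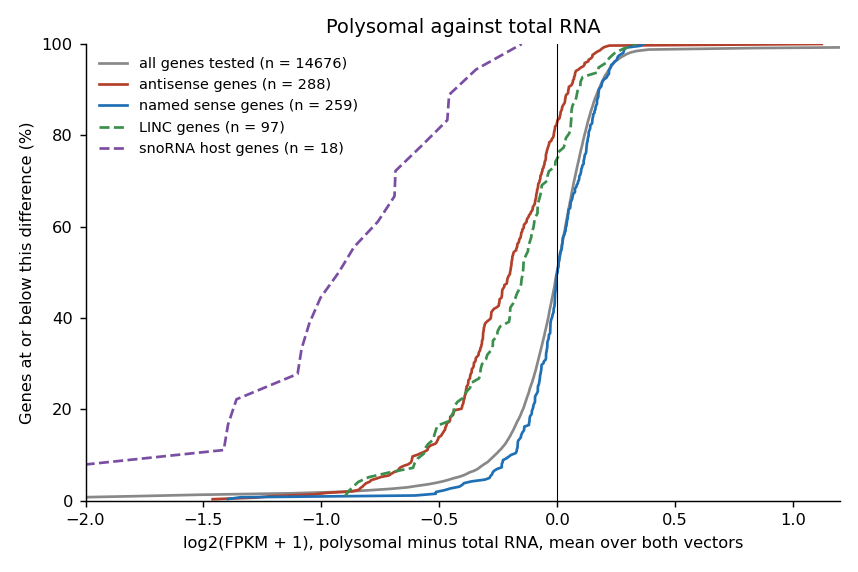
Cumulative share of genes (y axis, percent) at or below a difference between polysomal and total RNA (x axis, log2(FPKM + 1), mean over both vectors), for all 14676 genes, 288 antisense genes, 259 named sense genes, 97 LINC genes and 18 snoRNA host genes. The curve of the antisense genes lies left of the curves of all genes and of their sense genes, near that of the LINC genes, and the snoRNA hosts lie farthest to the left.

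The 2 largest falls were in antisense genes that host snoRNAs. LRRC75A-AS1 measured 796, 784 and 1015 FPKM in the control total libraries and 258, 255 and 515 in the control polysomal ones. In RBMX cells it measured 695, 786 and 716 in total and 287, 192 and 299.8 in polysomal RNA. No polysomal library reached a total library, and the difference was -1.46 ± 0.19 (SE, adjusted p = 0.00591, lower in 6 of 6 cultures). EPB41L4A-AS1, which lies inside the gene of a band 4.1 family protein and holds SNORA13, fell from 25.9, 23.7 and 34.0 to 9.02, 9.08 and 20.3 FPKM in control cells and from 29.8, 32.3 and 31.1 to 11.5, 8.95 and 12.99 in RBMX cells. Its exons lie to 49.6% opposite other exons. The groups did not overlap in either vector (-1.28 ± 0.19, adjusted p = 0.0109). These are the 2 antisense genes with an annotated SNORD or SNORA on their strand. TMEM161B-AS1 (-0.67, adjusted p = 0.0193) and UBA6-AS1 (-0.45) each hold a further snoRNA annotated without such a symbol, and their falls were smaller. Of 18 genes of the SNHG family and GAS5, known as snoRNA hosts, 16 fell too, with a median of -0.89.

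Next came OIP5-AS1, a conserved cytoplasmic RNA also known as cyrano, at chr15:41283990-41309737 on the plus strand (GRCh38, GENCODE 29). It measured 35.1, 36.6 and 42.8 FPKM in control total RNA against 12.9, 13.1 and 25.8 in polysomal RNA, and 25.3, 31.1 and 33.2 against 12.5, 11.0 and 12.6 in RBMX cells. Polysomal levels were under the total level of the same culture throughout (-1.21 ± 0.16, adjusted p = 0.00601). STAM-AS1, head to head with the gene of an endosomal sorting adaptor and with no exon base opposite another exon, fell by 0.98 ± 0.11 (adjusted p = 0.00368). Its total levels were 2.39, 2.02 and 3.53 FPKM in control and 1.59, 2.23 and 1.798 in RBMX cells, and its polysomal levels 0.568, 0.475 and 0.975, and 0.725, 0.615 and 0.468. Every polysomal library lay below every total library. It passed the threshold under 14 of 15 alternative settings.

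TOPORS-AS1 fell by 1.03 (adjusted p = 0.0329), and RefSeq now lists it as SMIM27, the gene of a small membrane protein. Its control culture 3 differed less, with 37.7 FPKM in total and 30.6 in polysomal RNA against 26.5 and 13.4 in culture 1. The same culture was least different for RAB30-AS1, head to head with a small GTPase gene (61.7 and 53.4 FPKM, against 46.9 and 27.2 in culture 2), which fell by 0.82 (adjusted p = 0.0279). TRIM52-AS1, beside a ubiquitin ligase gene and with no opposite exon bases, fell by 0.81 (adjusted p = 0.022). Further falls past the threshold were -0.87 in TAPT1-AS1, -0.84 in ZSCAN16-AS1, -0.84 in TTC28-AS1, -0.83 in HOXC-AS1, -0.80 in IQCH-AS1, -0.79 in THUMPD3-AS1, -0.77 in DGUOK-AS1 and -0.75 in NFYC-AS1. Each of these was lower in 6 of 6 cultures. CEP83-AS1, named after its values were seen, had a smaller fall of 0.35 but the lowest adjusted p of all 288 (0.0035), with 1.82, 1.71 and 1.91 FPKM in control total RNA against 1.39, 1.18 and 1.16.

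**Figure D2:**
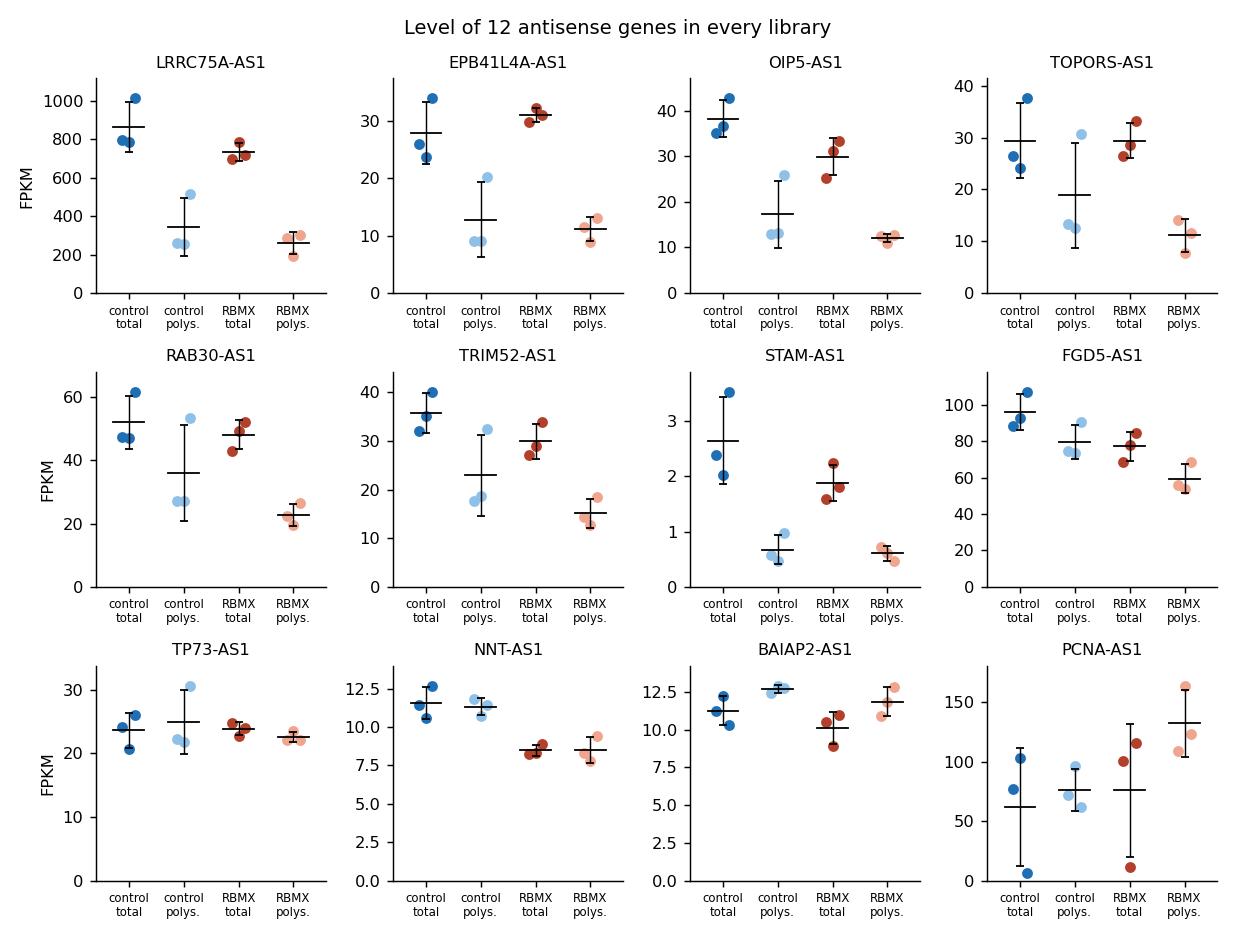
Level of 12 antisense genes (y axis, FPKM, from 0) in the 3 libraries of each group (points), with the mean (horizontal line) and the SD (error bar). In the first 7 genes the polysomal means lie below the total means of the same vector, with control culture 3 the highest control polysomal point, while TP73-AS1, NNT-AS1 and BAIAP2-AS1 do not show this and PCNA-AS1 holds 2 total libraries far below the others.

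Other abundant antisense genes showed smaller differences. RPARP-AS1 fell from 42.4, 44.0 and 48.0 to 29.4, 30.0 and 43.3 FPKM in control cells (-0.55 over both vectors, adjusted p = 0.0233). Culture 3 was again the least different of the control cultures. PITPNA-AS1 was lower in 6 of 6 cultures but missed the threshold (-0.59, adjusted p = 0.0565, and 0.024 with the culture as a block), and FBXO22-AS1 stood at -0.06 (adjusted p = 0.639). Near the minimum, ITPR1-AS1 fell from 0.752, 0.746 and 0.888 to 0.381, 0.418 and 0.431 FPKM in control cells (-0.31, adjusted p = 0.0103), so its mean over 12 libraries passed the minimum through total RNA.

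Not every antisense RNA was lower in polysomal RNA. No antisense gene rose past the threshold (1.49% of all genes). In that direction 3 had an unadjusted p under 0.05, BAIAP2-AS1 (0.19, adjusted p = 0.1), MORC2-AS1 (0.18, adjusted p = 0.139) and AGAP2-AS1 (0.15, adjusted p = 0.124). Of all 14676 genes 3535 had such a p in either direction, 2156 of them lower. The exons of MORC2-AS1 lie to 59.96% and those of AGAP2-AS1 to 57.73% opposite other exons, while BAIAP2-AS1 has no such bases. Their sense genes MORC2, AGAP2 and BAIAP2 stood at 0.26, 0.115 and 0.04. The part of sense reads in these values was not tested. BAIAP2-AS1 measured 11.3, 12.2 and 10.3 FPKM in control total RNA and 12.4, 12.9 and 12.8 in polysomal RNA, so the control groups did not overlap, while the RBMX groups (10.5, 8.91 and 11.0 against 10.9, 11.9 and 12.8) did. SLFNL1-AS1 (0.22), ZSWIM8-AS1 (0.17), EMC3-AS1 (0.15), C1RL-AS1 (0.12) and PSMG3-AS1 (0.07) were also higher in 6 of 6 cultures without passing. PCNA-AS1, at the gene of the replication clamp, had the largest positive value, 1.12 ± 0.72 (adjusted p = 0.387). That value came from 2 total libraries, at 6.76 (control culture 3) and 11.7 FPKM (RBMX culture 2), while the other 10 libraries lay between 61.5 and 164. It was not placed in GENCODE here, and reads of PCNA itself, at 388 FPKM, cannot be told apart from its own where the genes overlap.

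The 6 genes matched by symbol or synonym to a protein-coding RefSeq gene gave a mixed picture. This group was formed after values were seen. HNRNPU-AS1, one of them, was not placed in GENCODE, so its match may be to its sense gene and not to an antisense gene. TOPORS-AS1 fell, while NCBP2-AS2, HNRNPU-AS1, FAM83H-AS1 and TNRC6C-AS1 had differences of 0.01, 0.01, 0.05 and 0.07, none past the threshold. MMP24-AS1, now MMP24OS, stood at -0.32 (adjusted p = 0.0751, and 0.0385 with the culture as a block). The median of the 6 was 0.01.

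Among 16 long noncoding RNAs that are often studied, 7 fell. Besides OIP5-AS1 and EPB41L4A-AS1 these were CDKN2B-AS1, known as ANRIL (-0.62, adjusted p = 0.0271), ZNF667-AS1 (-0.47, adjusted p = 0.0476), MAPKAPK5-AS1 (-0.38, adjusted p = 0.028), ZEB1-AS1 (-0.38, adjusted p = 0.0183) and PCBP1-AS1 (-0.33, adjusted p = 0.0323). FGD5-AS1, with 88.6, 92.6 and 107 FPKM in control total and 74.9, 73.4 and 90.7 in control polysomal RNA, stood at -0.32 and missed the threshold (adjusted p = 0.0627, and 0.0147 with the culture as a block). The same held for SBF2-AS1 (-0.32, adjusted p = 0.0614, and 0.0104). The other 7, TP73-AS1, NNT-AS1, FOXD2-AS1, TMPO-AS1, LOXL1-AS1, TTN-AS1 and MCM3AP-AS1, lay between -0.11 and 0.12. TP73-AS1 measured 24.2, 20.6 and 26.0 FPKM in control total against 22.2, 21.7 and 30.6 in control polysomal RNA, with overlapping groups. Of the list of 18, HIF1A-AS2 lay under the minimum (0.0764 FPKM) and PSMB8-AS1 was not used here.

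Antisense genes of the HOX clusters, which hold the transcription factors of body axis patterning, differed among themselves. HOXC-AS1 fell (12.1, 10.9 and 14.8 FPKM in control total against 5.19, 6.29 and 10.7 in polysomal RNA, adjusted p = 0.0212). HOXB-AS1 stood at -0.71 (adjusted p = 0.0515, and 0.00824 with the culture as a block), HOXD-AS2 at -0.37, HOXB-AS3 at -0.10, HOXA-AS3 at -0.05 and HOXC-AS2 at 0.03. So 1 of 6 fell. Of the 11 antisense genes whose sense symbol starts with ZNF, ZSCAN, ZKSCAN or ZBTB, families of zinc finger proteins, 4 fell, with a median of -0.31, and of the 271 genes in neither this list nor the HOX list, which include partners of other zinc finger factors such as ZEB1, 83 fell, with a median of -0.20.

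The fraction difference was below 0 for most antisense genes in cells with and without added RBMX (244 and 232 of 288). In RBMX cells alone 32 antisense genes fell and 0 rose (1.31% and 0.0273% of all genes), with a median of -0.24. Among the genes past the threshold there, the largest falls were in LRRC75A-AS1 (-1.52), EPB41L4A-AS1 (-1.41), OIP5-AS1 (-1.24) and RAB30-AS1 (-1.05), and the set also held SRP14-AS1 (-0.80), RNASEH1-AS1 (-0.79), SCAMP1-AS1 (-0.76), NUP50-AS1 (-0.76) and SEC24B-AS1 (-0.74), which stood at -0.61, -0.59, -0.47, -0.57 and -0.48 in control cells. In control cells 0 fell and 0 rose by limma (0.0613% and 0.0204% of all genes), although the median was -0.17. An unadjusted p under 0.05 was found there for 53, all of them lower (1180 of all 14676 genes, 710 lower). All 32 genes called in RBMX cells were also lower in each of the 3 control cultures, which are separate libraries, with a median of -0.48 there. Of all 288 antisense genes, 234, 227 and 204 were lower in control cultures 1, 2 and 3. Over the 288 genes the differences in control and in RBMX cells had a Pearson r of 0.876 as a description, since genes of the same libraries are not independent. The calls in RBMX cells rested on the fit. With the culture as a block 0 passed (0.0204% of all genes lower), and 0 passed when any 1 of its 3 cultures was left out. In control cells 22 passed without culture 3 (1.36% of all genes). The difference between the vectors itself was past the threshold for 0 antisense genes by limma (0.0204% of all genes). At an unadjusted p under 0.05 were 2 (88 of all 14676 genes).

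**Figure D3:**
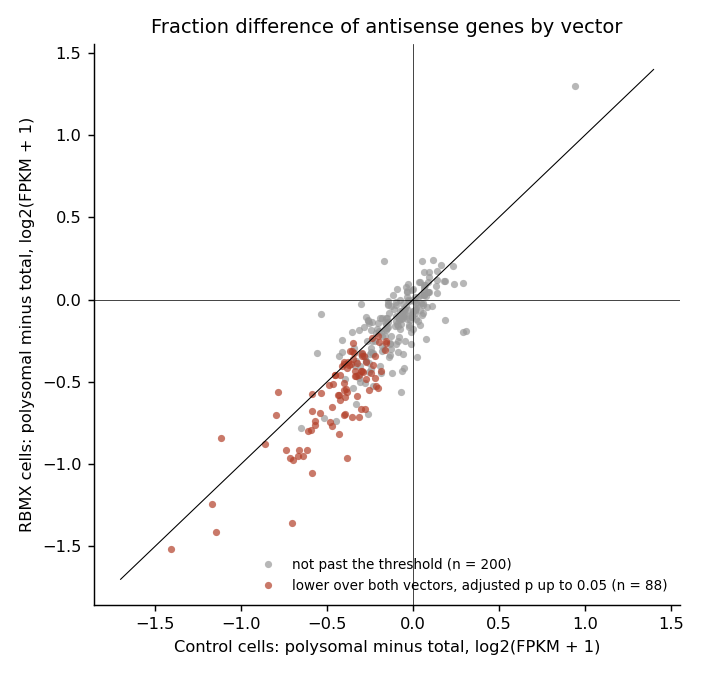
Difference between polysomal and total RNA (log2(FPKM + 1)) of each of the 288 antisense genes in control cells (x axis) and RBMX cells (y axis), with the line of equal values. The 88 genes lower over both vectors (red) lie below 0 on both axes, and PCNA-AS1 stands alone at 0.94 and 1.30.

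The counts differed by position and level. Of the 129 head-to-head genes 50 fell (38.8%), with a median of -0.28, of the 40 inside their sense gene 5 fell (12.5%), with a median of -0.14, and of the 100 with another overlap 30 fell (30.0%), with a median of -0.20. By shared exon bases, 28 of 71 genes with none fell (median -0.24), 46 of 134 with up to 25% (median -0.23) and 13 of 75 with more (median -0.14). Shared bases were counted from GENCODE exons only, with small RNA genes left out, and the annotation behind the FPKM was not used. Whether sense reads enter the values of the 71 genes was not tested. Where the start window overlapped that of the sense gene 42 of 93 genes fell (median -0.31), and where it did not 26 of 105 fell (median -0.20). By level, 37 of 70 at 5 FPKM or above fell (median -0.37), 24 of 84 between 2 and 5, 15 of 65 between 1 and 2, and 12 of 69 under 1 (median -0.13). The scale log2(FPKM + 1) understates the change of low genes. All genes of these levels had 4.94%, 6.08%, 5.36% and 4.60% lower. LINC genes, the long noncoding genes between other genes, had 20 of 97 lower and a median of -0.14. These counts were not tested against each other.

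As a group, the sense genes stood near 0. Of 262 antisense genes with a tested sense gene, 212 had a lower polysomal minus total difference than it, 106 of them in all 6 cultures, while 12 had a higher one in all 6. The median gap was -0.22. Among the 259 distinct sense genes 9 fell and 4 rose, with a median of 0.00 (0.00111). Where the antisense gene fell, in 80 pairs, 4 sense genes fell as well and 0 rose, and their median was -0.01 against -0.46 on the antisense side. OIP5, a centromere protein, stood at -0.01, STAM at -0.01, SRP14 at 0.00 (-0.00293) and LRRC75A at -0.01, beside falls of 1.21, 0.98, 0.70 and 1.46 in their antisense genes. The Pearson r between both sides was 0.0995 over the 262 pairs, 0.161 over 64 pairs without shared exon bases and 0.251 over 67 pairs with more than 25% shared, given as descriptions.

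Some pairs ran the other way. GAS5, a snoRNA host with a short open reading frame, fell by 1.396 and TPT1, whose mRNA is under translational control, fell by 1.34, while GAS5-AS1 and TPT1-AS1 stood at 0.08 and 0.07. TPT1 lay between 221 and 291 FPKM in control total and between 89.2 and 119 in control polysomal RNA. TPT1-AS1 measured 3.69, 3.78 and 3.35 against 3.87, 3.80 and 3.51 FPKM, with overlapping groups. Both pairs were named after their values were seen. In level, the antisense gene was above its sense gene in 41 of 262 pairs, and the median ratio was 17.2%. LRRC75A-AS1 was at 7811% of LRRC75A, RAB30-AS1 at 3406% of RAB30 and MMP24-AS1 at 2333% of MMP24.

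**Figure D4:**
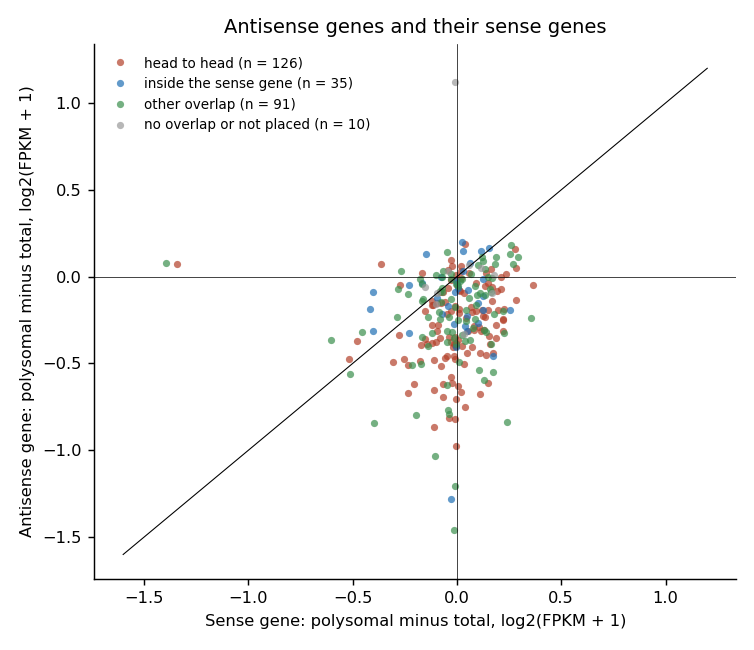
Polysomal minus total RNA (log2(FPKM + 1), mean over both vectors) of 262 antisense genes (y axis) and their sense genes (x axis), coloured by position, with the line of equal values. Most points (212) lie below the line, the sense genes gather around 0, and GAS5 and TPT1 lie far to the left with their antisense genes near 0.

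With added RBMX, no antisense gene changed past the threshold, though most values were below 0. In total RNA 0 of 288 passed by limma (0.164% of all genes). At an unadjusted p under 0.05 were 64, 61 of them lower (2756 of all 14676 genes, 1592 lower). The lowest adjusted p was 0.0521, and the median of RBMX minus control was -0.11 against 0 for all genes. In polysomal RNA 0 passed (0.0477% of all genes), and the median was -0.17. At an unadjusted p under 0.05 were 84, 82 of them lower (1715 of all 14676 genes, 958 lower). All 3 RBMX libraries lay below all 3 control libraries for 79 antisense genes in total RNA (15.4% of all genes) and for 105 in polysomal RNA (12.5%). They lay above them for 3 genes in each fraction (11.9% and 10% of all genes). In 49 antisense genes they lay below in both fractions. This was not counted over all genes, so the 49 cannot be weighed. These fractions come from the same cultures. In these bulk libraries, fewer cells with a transcript and less of it per cell cannot be told apart between the vectors. The 97 LINC genes had medians of -0.10 in total and -0.15 in polysomal RNA, with 72 and 73 below 0 and 29 in each fraction with all RBMX libraries below all control libraries (29.9%), so values below 0 were not particular to antisense genes. The size rested in part on control culture 3: without it the medians were -0.06 in total and -0.10 in polysomal RNA, with 180 and 197 of the 288 below 0, against 215 and 240 with it. The counts without overlap moved as well. Without culture 3 all RBMX libraries lay below all remaining control libraries for 91 genes in total RNA (26.5% of all genes). In polysomal RNA this held for 107 (26.2%). They lay above them for 40 and 28 antisense genes. The summed level of the 9 markers of other cell types was also apart, at 3.65 to 5.56 FPKM in control and 6.33 to 7.18 in RBMX total RNA and at 4.35 to 6.16 and 6.98 to 9.12 in polysomal RNA. Most of it was COL1A1. In total RNA the liver markers ALB (0.0679 to 0.105 in control, 0.184 to 0.226 in RBMX cells) and APOA1 (0.221 to 0.344, and 0.433 to 0.593) were apart in the same direction at low levels, while PTPRC, CD3E, PECAM1, VWF and DCN stayed under 0.07 FPKM. The part of these markers in the result was not tested. An exact permutation test of 3 against 3 libraries cannot go below 0.1, so none was run for single genes.

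The gene nearest to the threshold was ACVR2B-AS1, beside an activin receptor gene, with 1.86, 1.88 and 1.83 FPKM in control total and 1.197, 1.17 and 1.22 in RBMX total RNA. The groups were far apart (-0.38 ± 0.04, adjusted p = 0.0521), and it passed with another minimum FPKM or without RBMX culture 3. CEP83-AS1 measured 1.18, 1.09 and 1.199 in RBMX total RNA and 0.657, 0.610 and 0.691 in RBMX polysomal RNA, under its control values in both fractions (-0.38 and -0.44, adjusted p = 0.113 and 0.24). KCNJ2-AS1, beside a potassium channel gene, stood at -0.33 and -0.54 (adjusted p = 0.123 and 0.3). These 3 were named after their values were seen. In total RNA the sense gene ACVR2B was lower too, at 6.19 to 6.57 FPKM in control and 4.56 to 5.395 in RBMX cells (-0.32, adjusted p = 0.174). KCNJ2 lay at 0.806 to 0.956 and 0.631 to 0.7795 FPKM there (-0.14, adjusted p = 0.242), and CEP83 stood at -0.09. In polysomal RNA ACVR2B, KCNJ2 and CEP83 stood at -0.14, -0.11 and -0.09. With all 12 libraries in one fit CEP83-AS1 passed in both fractions and KCNJ2-AS1 in polysomal RNA. NNT-AS1, head to head with the gene of a mitochondrial transhydrogenase, was at 11.4, 10.6 and 12.7 FPKM in control and 8.26, 8.32 and 8.91 in RBMX total RNA, without overlap (-0.40 ± 0.08, adjusted p = 0.17). Its polysomal values were 11.8, 10.7 and 11.5 against 8.31, 7.80 and 9.41 (-0.38 ± 0.09, adjusted p = 0.4), while NNT itself stood at 0.23 and 0.27.

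ZEB1-AS1, which overlaps the gene of a repressor of epithelial genes, was lower in the RBMX libraries of both fractions (-0.44 and -0.47, adjusted p = 0.17 and 0.4), with ZEB1 at -0.08 and 0.02. In total RNA the largest negative values without overlap were FGF14-AS2 (-0.50), RTCA-AS1 (-0.49), SBF2-AS1 (-0.45) and ZEB1-AS1. In polysomal RNA they were ZBED5-AS1 (-0.73), PXN-AS1 (-0.65), OTUD6B-AS1 (-0.62) and NIFK-AS1 (-0.61), none past the threshold. In the other direction MTUS2-AS1 measured 0.138, 0.269 and 0.502 FPKM in control total and 1.03, 0.866 and 0.691 in RBMX total RNA, and 0.167, 0.188 and 0.264 against 0.749, 0.716 and 0.539 in polysomal RNA. It was the only one of the 288 with all RBMX libraries above all control libraries in both fractions (0.52 and 0.47, adjusted p = 0.176 and 0.3). Its mean of 0.510 FPKM passed the minimum of 0.5 through the RBMX libraries, so the selection itself favoured this direction. UNC5B-AS1 (0.34) and TMEM161B-AS1 (0.31) were above in total RNA, and PCNA-AS1 (0.78) and MORC2-AS1 (0.21) in polysomal RNA. Of the 262 pairs, the antisense value was below the sense value in 180 in total and 213 in polysomal RNA, and the sense medians were -0.02 and -0.01.

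**Figure D5:**
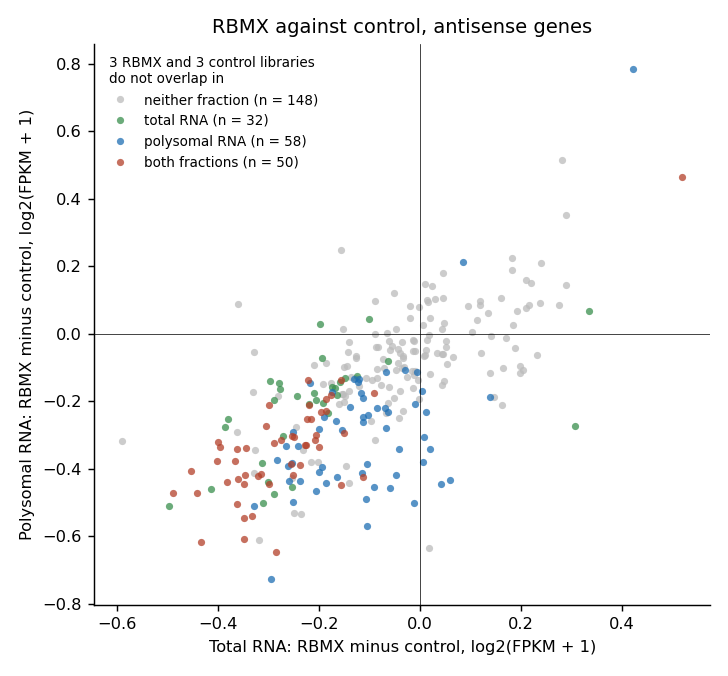
RBMX minus control (log2(FPKM + 1)) of each of the 288 antisense genes in total RNA (x axis) and polysomal RNA (y axis), coloured by the fractions in which the 3 RBMX and the 3 control libraries do not overlap. Of the genes, 50 are apart in both fractions (not counted over all genes), 49 of them lower with RBMX and 1 higher (MTUS2-AS1). Most points lie below 0 on both axes.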

How the data were processed

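RNA of 12 HEK293 libraries was measured (3 per vector and fraction, from 500 ng of RNA each). The authors deposited FPKM values per gene symbol. The submitters' processing notes name CASAVA 1.8, TopHat2 2.0.13, Cufflinks 2.2.1, Cuffnorm and hg19 without their roles, while the study's methods name hg38. No hg19 annotation was used, so positions come from GENCODE release 29 and RefSeq GRCh38.p14, matched by name. FPKM hold no fragment counts, so the depth and counting error of each value are unknown.

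Genes with a mean of at least 0.5 FPKM were compared with limma 3.58.1 (R 4.3.3, lmFit and eBayes with trend) on log2(FPKM + 1), with Benjamini-Hochberg adjustment over 14676 genes and a threshold of 0.05. This replaces the count test of the study, which FPKM do not allow. The fits were run on simulated data with noise independent between libraries, which does not cover a shared or an outlying culture. Python 3.11.15, pandas 2.3.3 and matplotlib 3.10.9 did the rest. Each comparison used only its own groups, and the one over both vectors and the difference between vectors used all 12 libraries.

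Polysomal and total libraries with the same number were taken as 1 culture, because the labels say that total RNA was pooled from the fractions of the gradient. They also name 2 dishes and do not say how these were divided. The deviations of the same-numbered libraries from their group means correlated by 0.425, 0.610 and 0.748 in control and 0.173, 0.0309 and 0.634 in RBMX cells over 14172 genes without small RNA genes. Over all 14676 genes they correlated by 0.0758, 0.0991 and 0.311 and by 0.00177, 0.0219 and 0.0893, and over the antisense genes by 0.107, 0.300 and 0.462 and by 0.252, -0.126 and 0.479, so the pairing rests on the labels and not on these values. Replicates are named biological, but no label says that the cultures were separate passages.

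The members, gene lists and named genes were chosen with earlier results of these data known. Named were up to 15 genes per comparison past the threshold, the 10 most abundant, the 6 largest rises and falls seen in all 6 cultures, the 4 largest per direction without overlap with RBMX, the HOX antisense genes, 18 well-described genes and the 3 on either side of the minimum. Some items that this rule or the marker lists hold are not reported here. For other genes the text says where values already seen led to the choice.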

Additional observations from a re-analysis of the deposited data

How the results depend on the processing

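The median difference between polysomal and total RNA over the antisense genes kept its sign under every alternative run, as did the count of 212 pairs with the antisense gene below its sense gene, which stayed within 1.5 times. Over both vectors the number of antisense genes past the threshold went from 88 (6.61% of all genes) to 53 with no filter (2.56%). It was 138 with the culture as a replicate block (17.6%), and 2 to 135 when 1 culture was left out (0.273% to 16.4%). With the block kept and 1 culture left out, an alternative chosen after seeing the data, it was 39 to 111 (1.76% to 11.8% of all genes). It was 49 without control culture 1 and 46 without RBMX culture 3. In all 6 of these fits 34 antisense genes passed, 30 of them among the 88. A pseudocount of 0.1 moved the medians to -0.32 over both vectors, -0.26 in control cells, -0.40 in RBMX cells, -0.15 for RBMX in total RNA and -0.27 for RBMX in polysomal RNA. In RBMX cells the count of 32 (1.34% of all genes) became 2 with no filter (0.21%), 7 with quantile normalization (0.477%) and 67 without small RNA genes (2.94%). It became 0 with the replicate block (0.0273%) and 0 without any 1 culture (0.143% to 0.157%). The median became -0.31 with a minimum of 1 FPKM and -0.18 with quantile normalization. In control cells the count of 0 became 0 to 22 when a culture was left out (0.0886% to 1.36% of all genes). For RBMX against control the count of 0 became 1 in total RNA (minimum of 0.1 or 1 FPKM, no filter, or all 12 libraries) and 2 in polysomal RNA (all 12 libraries), and 0 to 1 and 0 to 2 when a library was left out. The medians were then -0.145 to -0.06482 in total RNA and -0.22 to -0.10 in polysomal RNA, -0.15 with quantile normalization in total RNA and -0.21 with a minimum of 1 FPKM in polysomal RNA. The replicate number as a block changed no other call. Values near 0 changed sign: HOXA-AS3 (0.00053), NNT-AS1 (0.012) and TP73-AS1 (0.018) with quantile normalization, and, when a culture was left out, NNT-AS1 (-0.0322 to 0.014), TP73-AS1 (-0.0516 to 0.035), FAM83H-AS1 (-0.0059 to 0.0828), HNRNPU-AS1 (-0.073 to 0.085), HOXC-AS2 (-0.019 to 0.0576) and NCBP2-AS2 (-0.048 to 0.0678). The cause of these changes was not tested. The depth of the libraries is unknown, which limits what can be said of genes under 1 FPKM.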
